A study of Mus musculus with 4 samples.

Results

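Cytokine receptor chains were followed through thymocyte development in mice with and without a T cell deletion of *Eif4g2*, a translation initiation factor. The 10 chains were taken by symbol from the gene lists of both tables: *Il7r*, *Il2rg*, *Il2rb*, *Il4ra*, *Il6ra*, *Il6st*, *Il21r*, *Ifngr1*, *Ifnar1* and *Tgfbr2*. Each symbol occurred once, so that 10 of 21926 genes were described. Thymus cells of 1 WT mouse (Eif4g2-flox control, *Eif4g2* flox/flox without Cre) and 1 *Eif4g2* cKO mouse (CD4Cre; *Eif4g2* flox/flox) were captured unsorted in droplets, with 1 cDNA library per genotype. Both mice were 5 weeks old and labelled female, and both libraries carry the same batch label. Both groups therefore share the flox/flox alleles, and only the cKO mouse carries the Cre. The Cre transgene is driven by *Cd4* regulatory elements, which become active as thymocytes reach the CD4+CD8+ stage.

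Receptors of the class I cytokine family work as pairs or trios of chains. The IL-7 receptor joins IL-7Rα (*Il7r*) to the common γ chain (*Il2rg*), which is also part of the receptors for IL-2, IL-4, IL-15 and IL-21. IL-7Rα is known to be present on CD4-CD8- (double negative, DN) thymocytes, to be shut off in CD4+CD8+ (double positive, DP) cells and to return after positive selection, when IL-7 signals help CD8+ single positive (SP) cells to form. *Ifngr1* and *Ifnar1* are class II chains for the interferons, and *Tgfbr2* is a serine/threonine kinase receptor for TGF-β.

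A short sequence motif sets the class I chains apart, and it is shown because it sorts the 10 members by family. This is the tryptophan-serine box, which lies in the extracellular part. In the longest coding transcript of GENCODE M21 (GRCm38), 7 of the 10 chains held 1 box of 15 coding bases, and *Ifngr1*, *Ifnar1* and *Tgfbr2* held 0. Capitals mark the paired tryptophan and serine codons, and the lower case letters are the codon between them.
Il7r (chr15:9511151-9511165, minus strand, coding exon 5): TGGAGCgagTGGAGT
Il2rg (chrX:101266215-101266229, minus strand, coding exon 5): TGGAGTaaaTGGAGC
Il2rb (chr15:78485763-78485777, minus strand, coding exon 6): TGGAGTcccTGGAGC
Il4ra (chr7:125571554-125571568, plus strand, coding exon 5): TGGAGTgagTGGAGT
Il21r (chr7:125628998-125629012, plus strand, coding exon 5): TGGAGTgagTGGAGT
Il6ra (chr3:89885930-89885944, minus strand, coding exon 6): TGGAGCgaaTGGTCC
Il6st (chr13:112490597-112490611, plus strand, coding exon 6): TGGAGTgacTGGAGT
*Il4ra* and *Il21r*, which lie next to each other on the plus strand of chromosome 7, had the same 15 bases. The genes span 3.88 kb (*Il2rg*) to 91.1 kb (*Tgfbr2*) of the genome. Of the members, only *Il2rg* overlaps another gene of the tables, *Gm20489*, which had 2 UMIs in the WT and 0 in the cKO library.

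A tag near the 3′ end of each transcript was read and molecules were counted by unique molecular identifiers (UMIs), with 18355050 UMIs in the WT and 18056277 in the cKO library and a median of 1732.5 and 2140 UMIs per barcode. The targeted gene *Eif4g2* stood at 223 UMIs per 1000000 UMIs (CPM) in the WT and 274 CPM in the cKO library. It was higher in cKO in DP-like (261 against 523 CPM) and mature SP-like cells (186 against 331 CPM) and lower in cycling-like cells (217 against 187 CPM). A 3′ tag checks a deletion only where the deleted part includes the end of the transcript, so these counts do not check the labels. Against the label female, 3 Y-linked genes together had 2542 UMIs in WT but 1 UMI in cKO, so sex and genotype cannot be told apart in any comparison below, including that of the X-linked *Il2rg*. The barcodes are given as running numbers, of which 1055 occur in both tables, and shared barcodes could not be counted from them.

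Cells were placed in stages by clustering without the 10 members and by markers. The same markers named the classes, so their levels are no separate check of the names. For 5 classes all of the listed markers were higher than in the other cells of both libraries: DN-like (100 WT and 128 cKO cells), cycling-like (959 and 1305), DP-like (3322 and 2086), early post-selection-like (725 and 487) and mature SP-like (746 and 287). A small NKT or γδ T-like class held 52 and 14 cells, where 7 of 7 markers were higher in WT and 6 of 7 in cKO. Most DP-like WT cells lay in cluster 0 (2345 cells) and most cKO cells in cluster 1 (1402), with cluster 2 shared (857 and 547). Among cycling-like cells, WT cells lay mainly in cluster 7 (510) and cKO cells in cluster 5 (676), with cluster 6 shared (310 and 290). Each mouse gave 1 library, so no test between genotypes was possible. All intervals are exact 95% intervals that cover counting error only.

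*Il7r* was lowest in DP-like cells of both libraries, and in mature SP-like cells its level in the cKO library was 0.334 times that in WT. In WT it stood at 64.3 CPM in DN-like, 5.54 in cycling-like, 1.89 in DP-like, 32.4 in early post-selection-like and 123 CPM in mature SP-like cells. In cKO the same classes had 46.8, 3.97, 2.64, 44.5 and 40.9 CPM. Within each of the first 4 classes the libraries did not differ beyond counting error. The level in mature SP-like cells was 3.79 times that in early post-selection-like cells in WT (log2 1.92, interval 1.47 to 2.40) but 0.919 times in cKO (-0.12, -0.73 to 0.49). This step depends on where the border between these classes falls. At the finer resolution of 1.6, *Il7r* had 88.9 CPM in early post-selection-like and 106 CPM in mature SP-like cells of WT, and 44.4 and 43.9 CPM in cKO. With a stricter filter on cells (1000 to 10000 UMIs and at most 3% mitochondrial UMIs) the levels were 12.1 and 123 CPM in WT and 1.25 and 67.4 CPM in cKO. Mature SP-like cells had less *Il7r* in cKO under every alternative run, with log2 ratios from -1.75 to -0.87, the latter under the stricter filter. Of mature SP-like cells, 25.5% had an *Il7r* UMI in WT and 10.1% in cKO, at median depths of 3515.5 and 3542 UMIs. When each cell was thinned to 1000 UMIs, the shares were 10.2% (8.11 to 12.6%) and 3.48% (1.68 to 6.31%). In erythroid-like cells, which should lack the chain, 0 of 44 WT cells had an *Il7r* UMI, which allows a share of up to 6.82%, at a median depth of 6089.5 UMIs. The 4 erythroid-like cKO cells are too few to give a background. In DP-like cells, which are known to shut the gene off, the share was 0.301% in WT and 0.384% in cKO at median depths of 1408 and 1359 UMIs.

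**Figure D1:**
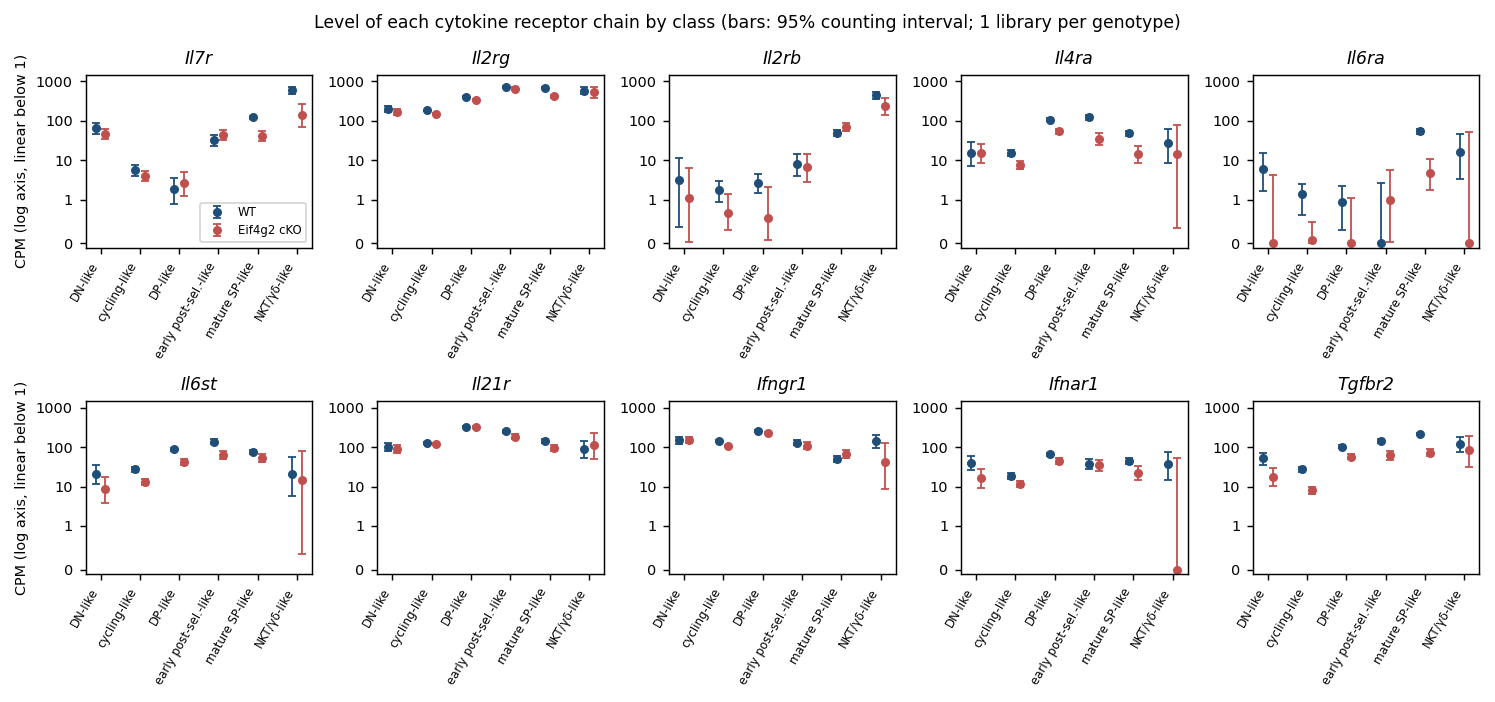
Level of each chain in UMIs per 1000000 UMIs of a class (CPM; log axis, linear below 1) in 6 classes of the WT (blue) and *Eif4g2* cKO (red) library, with 95% Poisson intervals for counting error and 1 library per genotype. *Il7r* falls to 1.89 and 2.64 CPM in DP-like cells and stands at 123 against 40.9 CPM in mature SP-like cells.

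The highest *Il7r* level was in the NKT or γδ T-like class, at 597 CPM (491 to 718) in WT and 143 CPM (68.6 to 263) in cKO, from 112 UMIs in 52 cells and 10 UMIs in 14 cells. These few cells supplied 18.2% of all WT *Il7r* UMIs, and mature SP-like cells 58.9%. In the cKO library mature SP-like cells supplied 25.0%, about as much as cycling-like and early post-selection-like cells with 22.1% each. The 29 cycling-like WT cells with an *Il7r* UMI had a median depth of 16528 UMIs, against 5419 for the class. Cells of high depth can be doublets, which were not removed, and their part in this value was not tested.

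*Il2rg*, the shared γ chain, was present in every T lineage class. In WT it stood at 204 CPM in DN-like, 184 in cycling-like, 405 in DP-like, 730 in early post-selection-like and 674 CPM in mature SP-like cells. The cKO library had 170, 146, 348, 658 and 420 CPM. Both libraries shared the order up to the early post-selection-like class, and the step from there to mature SP-like cells was -0.12 (log2, -0.22 to -0.00) in WT and -0.65 (-0.81 to -0.48) in cKO. Of mature SP-like cells with an *Il7r* UMI, 86.8% also had an *Il2rg* UMI in WT and 82.8% in cKO. Cells with UMIs of both chains of the IL-7 receptor made up 22.1% of the mature SP-like class in WT (165 cells) and 8.36% in cKO (24 cells). As background for *Il2rg*, 11.4% of the WT erythroid-like cells had a UMI of it, against 81.4% of the mature SP-like cells.

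*Il2rb*, the β chain that IL-2 and IL-15 receptors share, was found in mature and innate-like cells. In WT it had 50 CPM in mature SP-like and 448 CPM in NKT or γδ T-like cells, and in cKO 69.8 and 243 CPM. In DN-like, cycling-like and DP-like cells it had between 0.586 and 3.06 CPM in either library, from 1 to 14 UMIs. Over the whole library *Il2rb* was lower in cKO (15 against 6.76 CPM) although it was higher within the mature SP-like class. The classes that hold most of its UMIs were larger shares of the WT cells: 12.4% against 6.62% for mature SP-like and 0.865% against 0.323% for NKT or γδ T-like cells. The part of these shares in the whole-library value was not tested.

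*Il4ra* and *Il21r*, which pair with the γ chain for IL-4 and IL-21, had their highest levels before the mature stage. *Il4ra* stood at 108 CPM in DP-like, 122 in early post-selection-like and 48.0 CPM in mature SP-like cells of WT, and at 53.9, 35.6 and 14.4 CPM in cKO. In WT the DP-like and early post-selection-like levels did not differ beyond counting error. *Il21r* had 325, 252 and 143 CPM in these classes of WT and 317, 183 and 97.1 CPM in cKO. The chain was thus at about the same level in DP-like cells of both libraries.

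*Il6ra* and *Il6st* are the binding chain and the signal-transducing chain (gp130) for IL-6, and gp130 also serves other cytokines. *Il6ra* had its highest WT level in mature SP-like cells, with 54.7 CPM (46.6 to 63.8; 162 UMIs, 85.7% of all WT UMIs of the gene). Antigen-presenting-like (24.2 CPM, 7.87 to 56.6) and NKT or γδ T-like cells (16.0 CPM, 3.30 to 46.7) had 5 and 3 UMIs. Their intervals overlap that of mature SP-like cells, the latter only just. In WT DP-like cells it had 5 UMIs (0.947 CPM), and in early post-selection-like cells 0 UMIs, which allows up to 2.16 CPM. In the whole cKO library it had 9 UMIs, 6 of them in mature SP-like cells (4.81 CPM). *Il6st* was broader, with 89.4 CPM in DP-like, 139 in early post-selection-like and 75.3 CPM in mature SP-like WT cells, against 41.6, 64.3 and 52.9 CPM in cKO.

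From DP-like cells on, *Ifngr1* and *Tgfbr2* had opposite courses in WT. *Ifngr1*, which binds IFN-γ, was highest in DP-like cells of both libraries (254 CPM in WT and 231 CPM in cKO) and lowest in WT in mature SP-like cells, with 50.3 CPM there and 68.2 CPM in cKO. *Ifnar1*, a chain of the type I interferon receptor, stood at 65.1 CPM in DP-like and 43.6 CPM in mature SP-like cells of WT and at 44.2 and 22.5 CPM in cKO. *Tgfbr2*, the receptor chain that binds TGF-β, climbed in WT from 27.6 CPM in cycling-like and 102 in DP-like to 144 in early post-selection-like and 214 CPM in mature SP-like cells. In cKO these classes had 8.11, 57.1, 62.3 and 72.2 CPM, so that the last 3 did not differ between neighbours beyond counting error.

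Within each library, mature SP-like cells were then set against DP-like cells, with a log2 difference of more than 1 counted. In WT 4 of 10 chains were higher in mature SP-like cells (*Il7r* 6.02, *Il6ra* 5.85, *Il2rb* 4.24 and *Tgfbr2* 1.07), where 7.81% of all 8973 counted genes were. *Il7r*, *Il6ra* and *Il2rb* reached the minimum of 50 UMIs through mature SP-like cells alone, with 10, 5 and 14 UMIs in DP-like cells, so they had to be higher to be counted. A further 3 were lower (*Ifngr1* -2.33, *Il21r* -1.19 and *Il4ra* -1.17), where 20.7% of all genes were. In cKO 9 chains reached this minimum, and 2 of them were higher (*Il2rb* 6.90 and *Il7r* 3.96), where 3.75% of 7620 genes were. The lower ones were again *Il4ra* (-1.90), *Ifngr1* (-1.76) and *Il21r* (-1.71), where 22.8% of all genes were. *Tgfbr2* stood at 0.34 (-0.04 to 0.71) in cKO, within the threshold, and *Il2rb* and *Il7r* again reached the minimum through mature SP-like cells alone, with 2 and 9 UMIs in DP-like cells. The 3 chains that were lower in mature SP-like cells were the same in both libraries, whose stages came from a joint clustering.

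The libraries were compared next within each class. A log2 ratio of cKO to WT beyond 0.5, the threshold of the study's methods, was counted for genes with at least 50 UMIs in both libraries together. In mature SP-like cells 8 of the 10 chains were lower in cKO by more than 0.5, where 34.5% of 7271 counted genes were, and 0 were higher, where 9.1% were. The median of the chains was -0.82 and that of all counted genes -0.22. *Il4ra*, *Il6ra* and *Ifnar1* reached the minimum through the WT library alone, with 18, 6 and 28 UMIs in cKO. The class held 2960403 UMIs in WT and 1246594 in cKO. With these totals only *Il6ra* had to be lower in cKO to be counted.

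**Figure D2:**
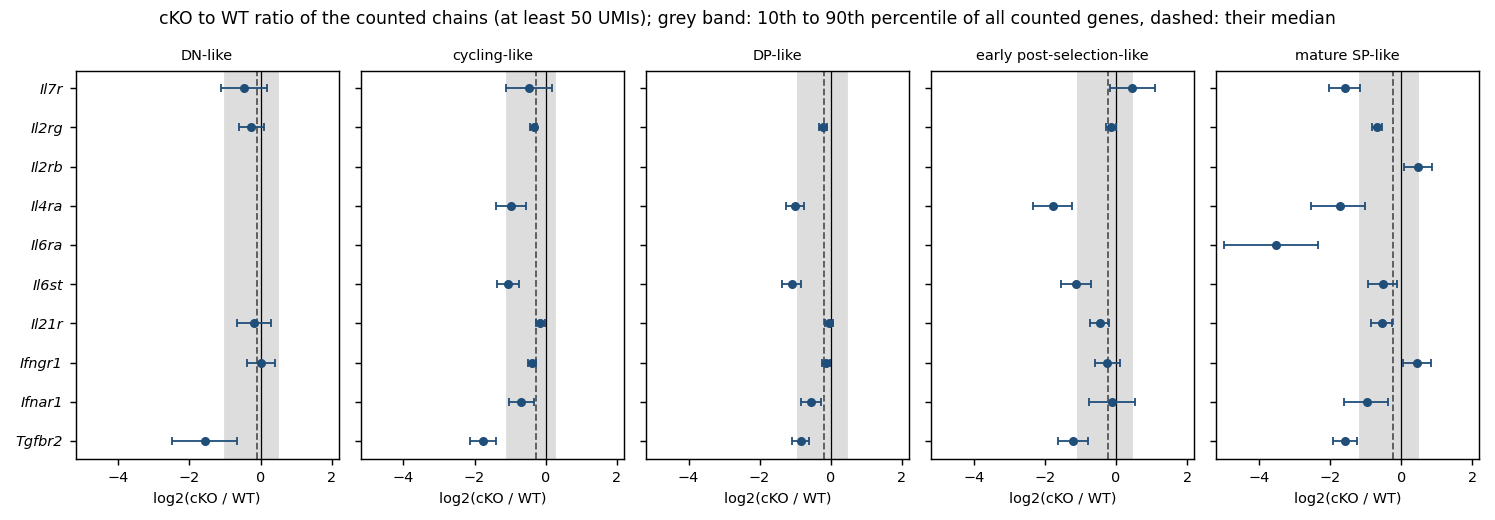
Log2 ratio of cKO to WT for each chain with at least 50 UMIs in a class, with 95% intervals for counting error. Grey bands span the 10th to 90th percentile of all counted genes and dashed lines their median. In mature SP-like cells 8 of 10 chains lie below -0.5, and *Il2rb* and *Ifngr1* lie above 0.

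By size, *Il6ra* had the lowest ratio in mature SP-like cells (log2 -3.51, -4.97 to -2.35), followed by *Il4ra* (-1.73, -2.53 to -1.02), *Il7r* (-1.58, -2.04 to -1.16) and *Tgfbr2* (-1.57, -1.91 to -1.25). These intervals of *Il4ra*, *Il7r* and *Tgfbr2* overlap. *Ifnar1* (-0.96, -1.60 to -0.36), *Il2rg* (-0.68, -0.82 to -0.54), *Il21r* (-0.55, -0.86 to -0.26) and *Il6st* (-0.51, -0.93 to -0.11) lay closer to 0. For *Il2rb* the ratio was 0.48 (0.08 to 0.87) and for *Ifngr1* 0.44 (0.04 to 0.83). These directions were not stable, with values over the alternatives from -0.94 to 0.80 for *Il2rb* and from -0.06 to 0.66 for *Ifngr1*. Among all counted genes *Il7r* stood at percentile 3.93, *Il2rg* at 25.9, *Il21r* at 31.9 and *Il6st* at 34.0, so the last 3 were not far from the bulk of genes. When ratios were centred on the median of all genes, 5 of 10 chains stayed lower by more than 0.5, where 24.2% of all genes were, and *Il2rg* (-0.46), *Il21r* (-0.33) and *Il6st* (-0.28) did not.

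In these libraries the ratio also goes with the length of a gene in the genome. In mature SP-like cells the median log2 ratio was 0.09 for genes up to 5 kb, 0.02 from 5 to 20 kb, -0.27 from 20 to 50 kb, -0.53 from 50 to 100 kb and -0.87 above. Against the median of its own length class *Il6ra* was lower by 3.24, *Il4ra* by 1.46, *Il7r* by 1.31, *Tgfbr2* by 1.04, *Il2rg* by 0.77 and *Ifnar1* by 0.69. *Il21r* (0.28 below) and *Il6st* (0.24 below) were near their class median, and *Ifngr1* and *Il2rb* were 0.42 and 0.46 above it. The part of length in these ratios was not tested.

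**Figure D3:**
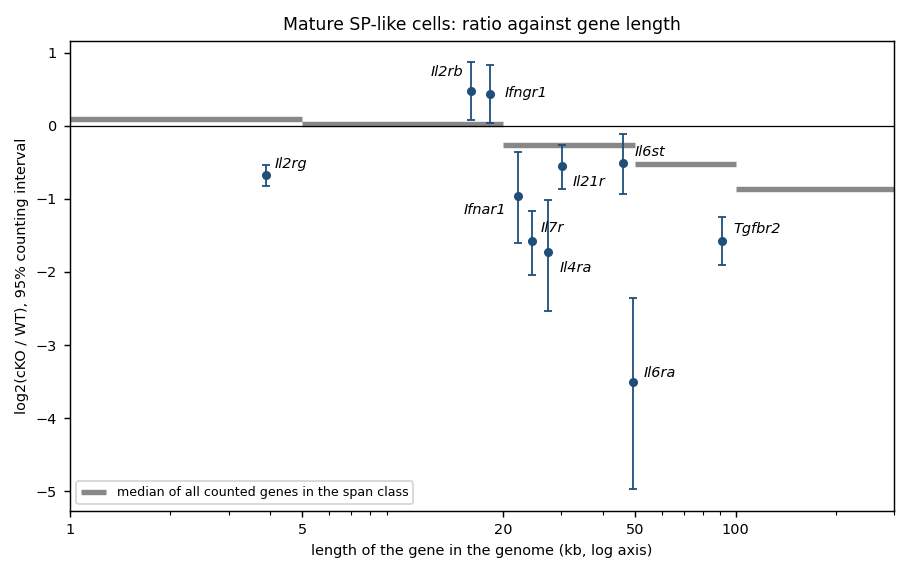
Log2 ratio of cKO to WT in mature SP-like cells against the length of the gene in the genome (kb, log axis), with 95% intervals for counting error. Grey bars are medians of all counted genes of a length class. *Il6ra*, *Il4ra*, *Il7r* and *Tgfbr2* lie well below their bars, and *Il6st* and *Il21r* near them.

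The mature SP-like class did not hold the same cells in both libraries. UMIs of *Pdcd1*, *Ikzf2* or *Tnfrsf9*, genes raised by strong T cell receptor signals, were found in 36.9% of its WT cells and 46.0% of its cKO cells. Without these cells 7 of 10 chains were lower by more than 0.5, where 34.5% of 5441 genes were. Of these 7, *Il2rg* alone had at least 50 UMIs in cKO, and the other 6 had 6 to 41 and reached the minimum through the WT library. *Il7r* then stood at 138 CPM in WT and 63.7 CPM in cKO (log2 -1.12, -1.67 to -0.61) and *Il21r* at 136 and 120 CPM (-0.18, -0.59 to 0.22). *Il2rb* stood at 31.3 and 31.8 CPM (0.03, -0.83 to 0.82), so its higher value was not seen in the remaining cells.

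A finer clustering (resolution 1.6) placed 456 WT and 49 cKO cells of the class in mature SP-like clusters again and 81 WT and 235 cKO cells in a cluster led by *Tnfrsf9*, *Nrgn*, *Tnfrsf4*, *Eno3* and *Pdcd1*. The remaining 209 WT and 3 cKO cells went to other classes, 208 and 3 of them to the early post-selection-like class, and had 211 CPM of *Il7r* in WT (144 UMIs). The *Tnfrsf9*-led cells had 9 WT and 7 cKO UMIs of *Foxp3* (31.5 and 7.07 CPM), the defining gene of regulatory T cells, and are called here by the leading gene. They were not alike in the libraries. *Tnfrsf4* stood at 797 CPM in WT and 32.3 CPM in cKO, *Ikzf2* at 1310 and 492 CPM and *Ctla4* at 157 and 75.7 CPM. *Il7r* had 24.5 CPM (7 UMIs) in the *Tnfrsf9*-led cells of WT and 39.4 CPM (39 UMIs) in those of cKO (log2 0.69, -0.49 to 2.09). In the cells that were again mature SP-like it had 106 CPM in WT and 44.1 CPM in cKO (-1.27, -2.30 to -0.40), the latter from 11 UMIs. The cKO class thus held mostly cells of this cluster. Of its 287 cells only 132 had a UMI of *Pdcd1*, *Ikzf2* or *Tnfrsf9*, so many cKO cells of the cluster had none. The name rests on the genes that led the cluster, not on UMIs of *Tnfrsf9* in each cell. The *Tnfrsf9*-led cells had less *Il7r* than the cells again mature SP-like in WT, while in cKO the levels were close (39.4 and 44.1 CPM). The part of this makeup in the ratio of the whole class was not tested. *Il2rg* was lower in cKO in both groups of cells, by 0.74 (log2, 671 against 403 CPM) in the *Tnfrsf9*-led cells and by 0.44 (636 against 469 CPM) in the others. *Tgfbr2* was also lower in both, by 1.21 and 1.37, while the *Il4ra* ratio moved to -0.57 (-1.83 to 0.46) and that of *Il6st* to -2.61 (-4.90 to -1.03) in the cells that were again mature SP-like.

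**Figure D4:**
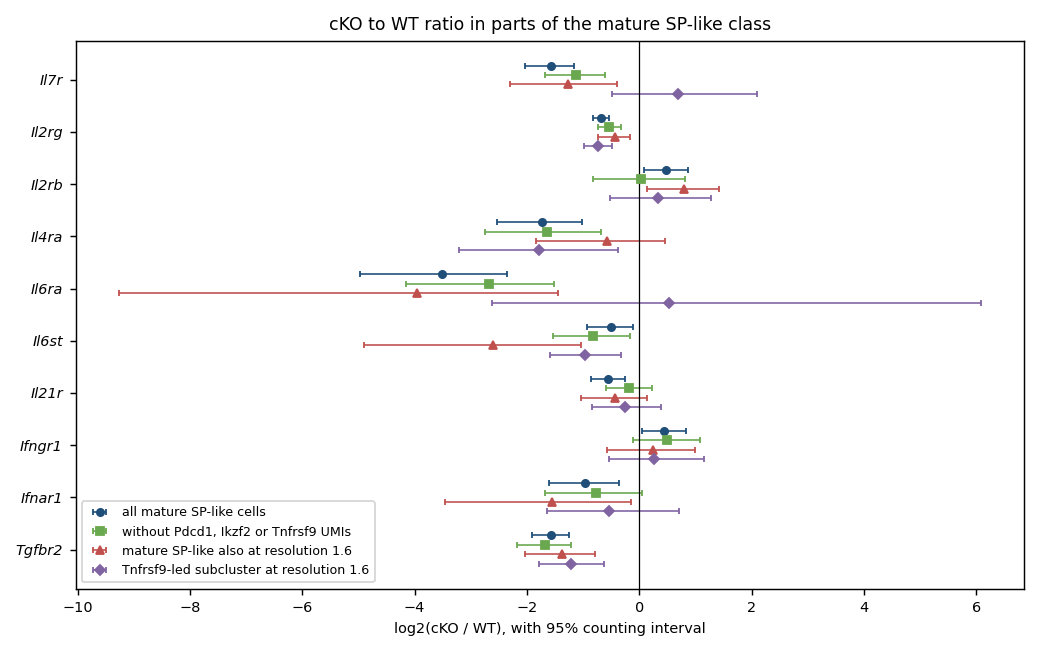
Log2 ratio of cKO to WT of each chain in all mature SP-like cells (circles), in those without *Pdcd1*, *Ikzf2* or *Tnfrsf9* UMIs (squares), in those also mature SP-like at resolution 1.6 (triangles) and in the *Tnfrsf9*-led cluster (diamonds), with 95% intervals for counting error. *Il2rg*, *Tgfbr2* and *Il6st* stay below 0 with their intervals in all 4 sets. *Il4ra*, *Il21r* and *Ifnar1* have values below 0 in all 4, but not all of their intervals are. *Il7r* lies at 0.69 in the *Tnfrsf9*-led cells with an interval that holds 0.

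Mature SP-like cells were also split by coreceptor UMIs, where the absence of a UMI does not show that a cell lacks the coreceptor. In WT, cells with only *Cd4* UMIs (141 cells) had more *Il7r* (148 against 87.4 CPM) and *Il6ra* (71.9 against 34.8 CPM) than cells with only *Cd8a* or *Cd8b1* UMIs (284 cells). The latter had more *Il2rb* (58.9 against 32.9 CPM), *Ifngr1* (49.1 against 24.7 CPM) and *Il21r* (158 against 103 CPM). These 5 differences were beyond counting error, and those of the other 5 chains were not. Between the libraries, *Il7r* was lower in cKO in both, at -1.31 (-2.68 to -0.20) in the *Cd4* cells and -1.25 (-2.21 to -0.41) in the *Cd8* cells, from 7 and 13 cKO UMIs. *Il2rg* had a ratio of -0.35 (-0.76 to 0.04) in the *Cd4* cells and -0.77 (-1.03 to -0.51) in the *Cd8* cells, and these intervals overlap. *Tgfbr2* stood at -1.23 (-2.23 to -0.38) in the *Cd4* cells and at -2.05 (-2.86 to -1.34) in the *Cd8* cells, which overlap too. Without cells that had *Pdcd1*, *Ikzf2* or *Tnfrsf9* UMIs the order of *Il2rg* turned, to -0.66 (-1.19 to -0.17) in the *Cd4* and -0.37 (-0.75 to -0.01) in the *Cd8* cells. The *Il7r* ratio of the *Cd8* cells was then -0.93 (-2.20 to 0.13), an interval that holds 0.

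In early post-selection-like cells 3 of 8 counted chains were lower by more than 0.5, where 33.9% of 6033 genes were. They were *Il4ra* (-1.77, -2.33 to -1.25), *Tgfbr2* (-1.21, -1.64 to -0.79) and *Il6st* (-1.11, -1.54 to -0.70). *Il7r* had 32.4 CPM in WT and 44.5 CPM in cKO there, from 45 UMIs in each (0.46, -0.17 to 1.09). When stages were taken from marker UMIs without clustering, the *Il7r* ratio in this class was -1.15, and at resolution 1.6 it was -1.0, so its direction depends on how the stage is drawn. *Il2rg* (-0.15, -0.29 to -0.01) and *Ifnar1* (-0.11) lay near 0.

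In DP-like cells 4 of 7 counted chains were lower by more than 0.5 (*Il6st*, *Il4ra*, *Tgfbr2* and *Ifnar1*), where 29.0% of 8860 genes were. *Il6st* had 89.4 CPM in WT and 41.6 CPM in cKO (log2 -1.10, -1.38 to -0.83) and *Il4ra* 108 and 53.9 CPM (-1.0, -1.25 to -0.76), while *Il21r* (-0.04) and *Ifngr1* (-0.13) lay near 0. In cluster 2, which both libraries share, 2 of 7 were lower, where 21.3% of 6308 genes were. *Il6st* remained low there at -0.90 (-1.36 to -0.45), *Ifnar1* stood at -0.52 (-1.04 to -0.02), and *Il4ra* was at -0.23 (-0.68 to 0.21).

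In cycling-like cells 4 of 8 counted chains were lower by more than 0.5, where 35.2% of 9345 genes were: *Tgfbr2* (-1.76, -2.14 to -1.40), *Il6st* (-1.06), *Il4ra* (-0.98) and *Ifnar1* (-0.69). In the shared cluster 6 only *Tgfbr2* was (27.5 against 14.4 CPM, -0.93, -1.62 to -0.27), 1 of 7 counted, where 22.4% of 7073 genes were, and *Il4ra* stood at 0.15 (-0.60 to 0.90). In DN-like cells, before the stage at which the Cre is active, 1 of 5 counted chains was lower by more than 0.5, where 26.5% of 3963 genes were. This was *Tgfbr2*, with 52.1 CPM (34 UMIs) in WT and 17.8 CPM (16 UMIs) in cKO (-1.55, -2.50 to -0.65). Its UMIs in both libraries together only just reached the minimum of 50. With 16 UMIs in cKO it could therefore be counted only at this ratio or a lower one. *Tgfbr2* thus lay below -0.5 in all 5 classes, though at -0.45 (-0.88 to -0.02) in the shared DP-like cluster. The gene spans 91.1 kb. All counted genes of 50 to 100 kb had medians of -0.49 in DN-like, -0.60 in cycling-like, -0.48 in DP-like and -0.56 in early post-selection-like cells. Against these medians *Tgfbr2* was lower by 1.06, 1.16, 0.36 and 0.65, and the part of length was not tested.

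The partner chains were described from a list of 21 other chains of these or related receptors. In mature SP-like cells 7 of them had at least 50 UMIs, and 5 were lower in cKO by more than 0.5, against 34.5% of all counted genes: *Tgfbr3* (-1.80), a TGF-β co-receptor, *Ifngr2* (-1.54), the partner of *Ifngr1*, *Il27ra* (-1.48), which pairs with gp130 for IL-27, *Il17ra* (-0.89) and *Tgfbr1* (-0.81), the partner of *Tgfbr2*. *Ifnar2*, the partner of *Ifnar1*, stood at -0.30 and *Crlf2*, the TSLP receptor chain that pairs with *Il7r*, at 0.44 (0.01 to 0.86). Of the 5 lower chains, 4 had 29 to 35 UMIs in cKO and reached the minimum through WT alone. *Tgfbr3* spans 183 kb, in the length class with a median of -0.87. The IFN-γ receptor pair differed: *Ifngr2* had 79.4 CPM in WT and 27.3 CPM in cKO, while *Ifngr1* had 50.3 and 68.2 CPM. The other 14 chains had fewer UMIs, *Il2ra* 28 in WT and 15 in cKO.

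Downstream of the receptors, 12 of 13 listed JAK, STAT and SMAD genes were counted in mature SP-like cells, of which 8 were lower by more than 0.5 and 0 higher, against 34.5% and 9.1% of all counted genes. Their median was -0.67 and that of all genes -0.22. Most of the counted genes of this list span more than 50 kb, in length classes whose medians are lower than that of all genes. The lowest ratio was that of *Stat4* (64.9 against 17.6 CPM, -1.88, -2.59 to -1.24), which carries IL-12 signals, and the highest that of *Smad2* (29.4 against 32.1 CPM, 0.13, -0.45 to 0.68). *Stat4* had 22 UMIs in cKO and reached the minimum through WT alone, as did some other lower genes. Its gene spans 120 kb and that of *Smad2* 69.4 kb, and the medians of their length classes were -0.87 and -0.53. The part of length was not tested here either. Of 9 ligands, *Tgfb1* (105 against 77.0 CPM, -0.45) and *Il2* (34.8 against 37.7 CPM, 0.12) had at least 50 UMIs in this class. *Il7*, which thymic epithelial cells make, had 0 UMIs in mature SP-like cells of both libraries.

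The genes most like *Il7r* over the 6 T lineage classes of both libraries (12 points, log2(CPM + 10)) included *Sema4a* (Pearson r 0.939), *Cd9* (0.928), *Capg* (0.927) and *Tmem126a* (0.921). Those most like *Il2rg* were *Stk17b* (0.983), *Ptpn12* (0.976), *Gimap8* (0.971), *Fyn* (0.971) and *Actr3* (0.965). They were taken from 8861 genes, and the points share 2 libraries and their depth. Among the members *Il2rb* was most like *Il7r* (0.835) and *Tgfbr2* most like *Il2rg* (0.892), while *Il7r* and *Il2rg*, which form 1 receptor, had 0.479.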

How the data were processed

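Thymus cells were captured with the DNBelab C4 system. Per the labels and file headers, the authors aligned the cDNA reads to mm10 with dnbc4tools (version 2.1.3 in the series' text, 3.0 in the file header) and deposited UMI counts per gene and barcode, not normalized. The oligo libraries, which serve to join beads to cells, have no values of their own. Barcodes with at least 50 genes and at most 10% mitochondrial UMIs were kept (6012 WT, 4335 cKO), and no doublets were removed or called. Counts without the 10 chains, the listed partner chains, downstream genes and ligands, and *Eif4g2* were scaled to 10000 per cell. Then 2000 variable genes, 30 components and 20 neighbours were clustered (scanpy 1.11.5, leidenalg 0.10.2, resolution 1). Classes were named from marker lists. UMIs were summed per class and library, with exact Poisson intervals for CPM and exact conditional binomial intervals for ratios (scipy 1.17.1), after tests on simulated counts. Genes with fewer than 50 UMIs were not counted, and 3 UMIs stood for the limit of a count of 0. GENCODE M21 matched 97.9% of 21926 gene IDs. The members, lists, markers and rules were chosen with earlier results of these data known. The genes named are the members, all listed partner chains with at least 50 UMIs, the extremes of the downstream list and the 5 genes most like *Il7r* and *Il2rg*, of which 1 is not reported here. The 3 genes used to split mature cells, the shared clusters and the split at resolution 1.6 were chosen after the data were seen. Other clustering, filters, scaling and minimums were tried as alternatives.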

Additional observations from a re-analysis of the deposited data

Results flagged for a closer look

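For 2 chains the cKO to WT ratio had opposite directions in different classes, although the direction in mature SP-like cells was not stable for either. *Il2rb* stood at 0.48 (log2, 0.08 to 0.87) in mature SP-like cells and at -0.88 (-1.73 to -0.12) in NKT or γδ T-like cells, the latter from 84 WT and 17 cKO UMIs. In mature SP-like cells it became -0.94 with stages from marker UMIs and 0.03 without cells that had *Pdcd1*, *Ikzf2* or *Tnfrsf9* UMIs. *Ifngr1* stood at 0.44 (0.04 to 0.83) in mature SP-like cells, at -0.39 (-0.51 to -0.27) in cycling-like and at -0.13 (-0.26 to -0.01) in DP-like cells. Its ratio in mature SP-like cells became -0.06 without cells that had *Rag1*, *Rag2* or *Dntt* UMIs. The medians of all counted genes were -0.27 in cycling-like and -0.18 in DP-like cells, so *Ifngr1* was near the bulk of genes in DP-like cells. There it ranged from -0.5 to 0.04 over the alternatives, so that direction was not stable either. With 1 library per genotype these differences were not tested, and the intervals cover counting error only.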

How the results depend on the processing

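Of 338 ratios recomputed under an alternative that can change them (not the minimum of UMIs), 289 stayed within the counting interval of the reported value and 49 left it. The sign changed in 21, of which 1 had been beyond 0.5: *Il4ra* in cycling-like cells was -0.98 and became 0.15 in the shared cluster. *Il2rb* in mature SP-like cells went from 0.48 to -0.94 and *Il7r* in early post-selection-like cells from 0.46 to -1.15 with marker UMIs. Of 800 levels, 164 moved. The number of chains lower in cKO in DN-like cells (1 of 5 counted) became 2 of 5 at resolution 1.6 and 0 of 3 with stages from marker UMIs. It became 3 of 8 with a minimum of 20 UMIs and 4 of 9 with at least 1 UMI on each side. It went from 4 to 1 in cycling-like cells and from 4 to 2 in DP-like cells when only the shared cluster was used. With marker UMIs it rose from 3 to 5 in early post-selection-like cells, and centring on all genes lowered it from 8 to 5 in mature SP-like cells. The number of chains higher in mature SP-like than DP-like cells of cKO (2 of 9 counted) became 0 of 7 at resolution 1.6 and 1 of 8 with marker UMIs. Where fewer chains were counted, a smaller number does not show that a chain stopped being higher or lower. Of these settings, the share of all genes was computed for the shared clusters and for centring, and is given above. For the other settings it was not computed, so their numbers cannot be read as a result about the chains. The cause of these changes was not tested. In mature SP-like cells *Il6st* ranged from -2.61 to -0.28 and *Il4ra* from -2.40 to -0.58, while *Tgfbr2* (-1.89 to -1.35) and *Il2rg* (-0.74 to -0.43) had narrower ranges. These chains all stayed below 0. So did *Il7r* (-1.75 to -0.87), *Il6ra* (-4.04 to -2.62), *Ifnar1* (-1.56 to -0.57) and *Il21r* (-0.81 to -0.18). No paired analysis was possible because each genotype has 1 library. *Il6ra* in cKO and *Il7r* in DP-like cells are limited by depth, with 9 and 9 to 10 UMIs.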
